A study of Mus musculus with 10 samples.

Results

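Switching on Etv2 with doxycycline in mouse embryoid bodies was followed at day 2.5 of differentiation by higher messenger RNA of blood and endothelial genes. Messenger RNA of primitive streak and ribosome biogenesis genes was lower. Embryoid bodies are aggregates in which embryonic stem cells differentiate. The cells carry an iHA-Etv2 transgene, in which doxycycline (Dox) switches on an HA-tagged Etv2. The comparison rests on 4 of the series' 10 libraries, chosen by their titles, namely 2 of doxycycline-treated embryoid bodies of day 2.5 and 2 of untreated embryoid bodies of the same day. The other 6 libraries are the doxycycline and untreated pairs of day 2 and a Flk1-positive pair of day 2.5 with doxycycline. All groups share the iHA-Etv2 line, and the sources used here give no doxycycline dose or start of treatment and do not say whether the line is 1 clone. No group had doxycycline without the transgene, so effects of doxycycline itself and of Etv2 cannot be told apart. The 4 libraries are labelled as not Flk1-positive, which leaves undecided whether the cells were unsorted or sorted as negative. The labels are silent on whether the replicates came from separate cultures. All 10 libraries were fitted together, so p-values reflect the spread within replicate pairs of all groups, which may be technical.

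Etv2 is an ETS family transcription factor that is made for a short time in mesoderm leaving the primitive streak, and mouse embryos without it form neither blood nor vessels. The streak itself is patterned by Nodal, Wnt, FGF and BMP signals, which turn on genes such as T, Mixl1 and Eomes before cells choose between heart, somite, blood and vessel fates. Flk1, the VEGF receptor encoded by Kdr, marks the precursors from which blood and endothelium arise.

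Total counts were 36068329 and 34650432 in doxycycline replicates 1 and 2 and 23326111 and 24710072 in the untreated replicates. Levels are given in CPM, counts scaled to a common library size, for replicate 1 and then replicate 2 of a group, and differences as log2 fold changes of doxycycline over untreated with the standard error. A gene was called when its adjusted p was under 0.05 in edgeR's quasi-likelihood test (Benjamini-Hochberg adjustment over the whole set of 14548 tested genes). By this rule 4350 genes (29.9%) were called, of which 2349 (16.1%) were called higher and 2001 (13.8%) lower. With a change of at least 2-fold as well, 1101 (7.57%) rose and 316 (2.17%) fell, and the median log2 fold change over all genes tested was 0.00. The number called lower depended on single libraries, since it was 1032 without doxycycline replicate 2, 1200 without untreated replicate 1 and 1333 without untreated replicate 2. Lists of lineage, signalling and regulatory genes are therefore counted below by the call together with a change of at least 2-fold, unless stated. Small metabolic changes are counted by the call alone. Both kinds of count are to be read beside the shares of all genes given above. Some genes are on several lists, so counts of different lists are not independent. Genes with few counts in every group were not tested. A list member near 0 without doxycycline was thus tested only if it was higher in another group. Both the share of a list that rose and its median can be raised by this. At day 2.5, for every gene whose levels are given below, other than Smarca4, both treated libraries lay on one side of both untreated libraries. For the 20 largest rises and the 20 largest falls this was a condition of their choice. Most other genes were chosen among those called, so their separation is no added evidence. The share of all genes tested with such separation is not given here.

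Etv2 stood at 272 and 255 CPM with doxycycline and at 6.57 and 7.50 CPM without (log2 fold change 5.22 ± 0.14, edgeR adjusted p = 5.38e-13). Both treated libraries were thus above both untreated ones, and the counts do not separate transcripts of the transgene from those of the endogenous gene. Kdr, a known target of Etv2, stood at 405 and 433 CPM against 7.05 and 7.42 CPM (5.85 ± 0.18, adjusted p = 3.16e-12). Kdr and Etv2 lie on chromosomes 5 (75932827 to 75978458) and 7 (30633616 to 30635852) of GRCm38, both on the minus strand. The label was then checked against defining genes. The pluripotency gene Pou5f1 remained abundant in all 4 libraries, at 736 and 713 CPM with and 1033 and 933 CPM without doxycycline, and Cdh5, the cadherin of endothelial junctions, had 1007 and 1081 counts with and 2 and 6 counts without. The globin genes checked were at or near 0, with 1 count of Hbb-bh1 in the 4 libraries together and none of Hba-x and Hbb-y. The pan-leukocyte gene Ptprc had 0 counts with and 1 and 1 without doxycycline. Not all genes of maturing blood were near 0, since the myeloid gene Mpo had 329 counts with doxycycline and 0 without. In bulk RNA, a change in the share of cells of a type and a change in RNA per cell cannot be told apart.

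**Figure D1:**
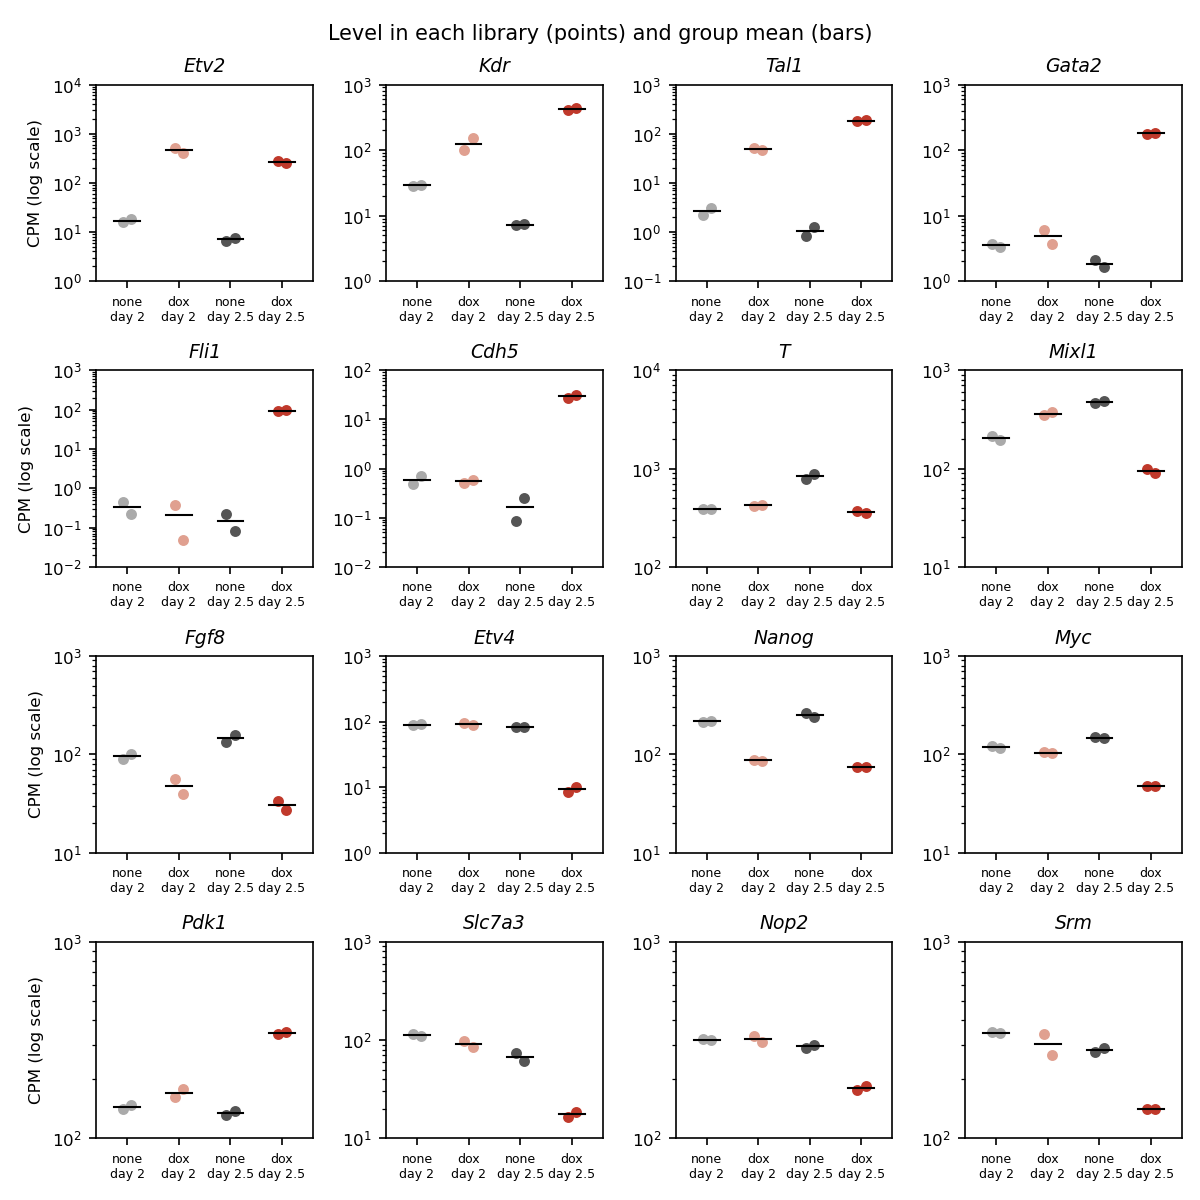
Level of 16 genes in CPM (log axis) in each library of the untreated (none) and doxycycline (dox) groups of day 2 and day 2.5, with points for libraries and bars for group means. Kdr, Tal1, Gata2, Fli1 and Cdh5 stood far higher in both doxycycline libraries of day 2.5 than in both untreated ones, while T, Mixl1, Fgf8, Etv4, Nanog, Myc, Slc7a3, Nop2 and Srm stood lower.

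Many of the genes with the largest rises had almost no reads in untreated libraries. Tal2, a relative of the blood factor Tal1, had 725 counts with doxycycline and 0 without, and was at least 160-fold higher when the untreated group is set to 3 counts in all. Zdhhc22, a member of the palmitoyltransferase family, had 364 counts with doxycycline and 2 without, so its ratio was 121 with an interval of 33.2 to 1001 (95%, from the counts). This interval and floor cover counting error only. Among the 20 largest rises were 9 genes of DNA-binding factors, namely Tal1, Tal2, Gata2, Fli1, Erg, Fev, Sox7, Sox18 and Dbx1. Erg, an ETS factor of endothelial cells, stood at 12.2 and 10.9 CPM against 0 and 0.207 CPM (6.70 ± 0.44, adjusted p = 1.48e-08). Gata2, a zinc finger factor of blood stem and progenitor cells, stood at 176 and 184 against 2.09 and 1.62 CPM (6.60 ± 0.18, adjusted p = 7.44e-13). All 20 were chosen among genes whose groups did not overlap. Others of the 20 act at the cell surface or in signalling. Rhoj, a small GTPase of endothelium, stood at 24.9 and 26.3 against 0.305 and 0.124 CPM (6.88 ± 0.26, adjusted p = 2.75e-11). Tmem173, the innate immune adaptor STING, stood at 15.3 and 14.01 against 0.261 and 0.0829 CPM (6.39 ± 0.35). St8sia1, the sialyltransferase that makes ganglioside GD3, stood at 30.2 and 29.5 against 0.392 and 0.332 CPM (6.35 ± 0.27). For Tmem173 and St8sia1, edgeR gave adjusted p of 1.63e-09 and 1.24e-10.

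RefSeq promoter windows of GRCm38.p6, from 250 bases before to 50 bases after the start, were available for 10 of these 20 genes. The short ETS form AGGAAG was in a window of 5 of these 10 genes and in none of the other 5. The windows of the 3 genes with a single window that held it were picked for holding it, to show how the form lies in them. Capitals mark AGGAAG or its reverse complement CTTCCT and the GATA form AGATAA, read 5′ to 3′ on the gene's strand. They lie at chr4:53779451-53779750 (Tal2, plus strand), chr10:5593478-5593777 (Myct1, plus strand) and chr12:75308063-75308362 (Rhoj, plus strand).
Tal2: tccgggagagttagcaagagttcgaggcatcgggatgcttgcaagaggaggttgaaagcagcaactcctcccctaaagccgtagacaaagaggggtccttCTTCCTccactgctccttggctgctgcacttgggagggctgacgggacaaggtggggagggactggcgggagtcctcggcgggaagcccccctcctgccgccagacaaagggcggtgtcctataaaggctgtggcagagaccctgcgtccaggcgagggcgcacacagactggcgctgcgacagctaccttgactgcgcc
Myct1: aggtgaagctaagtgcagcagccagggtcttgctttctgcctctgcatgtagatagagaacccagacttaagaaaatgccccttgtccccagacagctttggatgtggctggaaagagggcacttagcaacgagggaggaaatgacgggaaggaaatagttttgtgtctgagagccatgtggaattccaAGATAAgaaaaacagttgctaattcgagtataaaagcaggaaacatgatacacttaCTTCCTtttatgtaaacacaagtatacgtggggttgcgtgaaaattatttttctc
Rhoj: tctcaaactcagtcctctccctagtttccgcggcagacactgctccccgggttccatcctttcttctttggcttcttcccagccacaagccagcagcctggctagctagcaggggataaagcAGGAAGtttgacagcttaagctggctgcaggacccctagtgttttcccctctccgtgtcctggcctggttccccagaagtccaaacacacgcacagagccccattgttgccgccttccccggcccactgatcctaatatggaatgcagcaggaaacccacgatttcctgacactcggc
Over 10247 tested genes with a window, AGGAAG was found on either strand in 37.0%, against 343 of the 763 genes that rose at least 2-fold (45.0%) and 70 of the 221 that fell (31.7%). The longer ETS form CCGGAAGT was in 8.1% of all, but in 11 of the risers (1.4%) and 5 of the fallers (2.3%), and none of the 10 largest risers with a window held it. The GATA form AGATAA was in 7.6% of all genes, 11.1% of risers and 7.7% of fallers. A gene with several windows counted once if any held the letters, and a match is a description of the sequence, not a bound site.

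Of the 20 largest falls, 6 were genes of the primitive streak list, namely Fgf17, Mesp1, Wnt8a, Gsc, Fst and Lhx1. Others were Cdx1, a homeobox gene of posterior tissue (1.57 and 0.231 against 6.66 and 4.77 CPM, -2.65 ± 0.55, edgeR adjusted p = 0.0019), and Dact1, a modulator of Wnt signalling (3.96 and 3.99 against 27.2 and 24.2 CPM, -2.69 ± 0.18). Nefl, a neurofilament gene, stood at 31.9 and 27.9 against 173 and 168 CPM (-2.51 ± 0.12). A neighbouring gene shares 34.9% of the exon length of Dact1 and 32.8% of that of Nefl, so part of these reads may be the neighbour's. Pcdh8, a protocadherin of paraxial mesoderm, stood at 4.39 and 4.94 against 24.1 and 28.1 CPM (-2.49 ± 0.17). Magel2, an imprinted gene, stood at 8.71 and 6.12 against 39.2 and 36.4 CPM (-2.35 ± 0.19). Arl4d, a small GTPase, stood at 1.95 and 1.24 against 8.79 and 10.03 CPM (-2.55 ± 0.32). For Cdx1, Dact1, Nefl, Pcdh8, Magel2 and Arl4d the edgeR adjusted p lay between 2.90e-10 and 0.0019. Absence of overlap between treated and untreated libraries was a condition for choosing them.

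Endothelial genes rose as a group. Of 32 tested members, 28 rose at least 2-fold and none fell, with a median log2 fold change of 4.09. Their summed level was 1720 and 1800 CPM with doxycycline and 152 and 155 CPM without. Sox7, Sox17 and Sox18, the SoxF factors that act in arterial and lymphatic development, all rose. Sox7 stood at 52.2 and 58.9 against 0.0870 and 0.414 CPM (7.74 ± 0.34). Sox17 stood at 9.83 and 11.8 against 0.348 and 0.663 CPM (4.39 ± 0.32). Pcdh12, a protocadherin of endothelial junctions, stood at 33.2 and 33.0 against 0.305 and 0.0414 CPM (7.56 ± 0.32). For Sox7, Sox17 and Pcdh12, edgeR gave adjusted p of 5.66e-10, 5.09e-08 and 1.08e-10. Pecam1, an adhesion molecule of mature endothelium, was called but changed by less than 2-fold. Its levels of 7.06 and 9.65 against 6.18 and 4.48 CPM gave a log2 fold change of 0.65 ± 0.23 (edgeR adjusted p = 0.0424). The change was 0.41 without doxycycline replicate 2 and 0.43 without untreated replicate 2, and the call was lost in both cases. It was also lost without either untreated library of day 2, without either Flk1-positive library, and with limma-voom (adjusted p = 0.059).

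Of 27 haematopoietic genes on the list, 21 were tested, of which 16 rose at least 2-fold and none fell (median 2.28). Without any one of the 4 libraries 13 to 15 rose, and without doxycycline replicate 2 or untreated replicate 1 there was 1 that fell. Tal1, Lmo2 and Gata2, which act together in a complex in blood progenitors, rose beside Hhex, a homeobox factor (127 and 138 against 9.88 and 11.1 CPM, 3.66 ± 0.11), and Cbfa2t3, a corepressor that binds Tal1 (18.5 and 20.7 against 0.305 and 0.622 CPM, 5.38 ± 0.29). For Hhex and Cbfa2t3, edgeR gave adjusted p of 2.69e-12 and 1.63e-09. Kit, the stem cell factor receptor, stood at 37.3 and 35.2 against 49.5 and 48.8 CPM (-0.44 ± 0.11, adjusted p = 0.00905), a call lost without doxycycline replicate 2 (adjusted p = 0.0962) or untreated replicate 1 (adjusted p = 0.0553). Gata1, the erythroid factor, had 46 and 28 counts with doxycycline and 3 and 7 without, and the platelet integrin Itga2b 70 and 52 counts against 9 and 15.

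Leukocyte genes were included as markers of another cell type. Of 18 on the list, 10 had enough counts to be tested, of which 7 rose and none fell at least 2-fold (median 1.97). Their summed level was 182 and 195 CPM against 48.6 and 44.0 CPM. Among them were regulators of actin and signalling adaptors. Lcp1, an actin bundler, stood at 95.7 and 107 against 11.5 and 7.83 CPM (3.39 ± 0.16). Coro1a, another actin regulator, stood at 35.2 and 33.5 against 9.75 and 9.78 CPM (1.82 ± 0.17). Lax1, an adaptor on the study's own PCR panel, stood at 8.95 and 9.50 against 0 and 0.373 CPM (5.56 ± 0.47). For Lcp1, Coro1a and Lax1, edgeR gave adjusted p of 2.91e-10, 9.04e-07 and 2.60e-07. The macrophage genes Csf1r and Tyrobp had 0 counts in all 4 libraries, and Ptprc was near 0. Mpo, described above, was higher with doxycycline.

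Primitive streak and mesendoderm genes fell almost without exception. Of 24 members, all tested, 21 fell at least 2-fold and 1 rose (median -1.95), and 20 or 21 fell without any one of the 4 libraries. Their summed level was 2150 and 2090 CPM with doxycycline and 4770 and 5270 CPM without. T (Brachyury), the factor that defines the streak, stood at 368 and 356 against 791 and 878 CPM (-1.21 ± 0.08, adjusted p = 3.22e-08). Mesp1, which marks the first mesoderm to leave the streak, stood at 2.77 and 1.56 against 20.02 and 21.6 CPM (-3.26 ± 0.29, adjusted p = 5.07e-07). Gsc and Foxa2, factors of anterior streak and endoderm, stood at 5.99 and 4.36 against 30.5 and 28.4 CPM (-2.51 ± 0.25) and 9.86 and 8.64 against 24.5 and 28.8 CPM (-1.53 ± 0.25), with edgeR adjusted p of 1.74e-06 and 2.80e-04. The member that rose was Amot, an angiomotin that binds YAP, at 786 and 783 against 254 and 227 CPM (1.70 ± 0.13, adjusted p = 1.69e-07).

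Genes of other mesoderm were mixed. Of 18 cardiac and lateral mesoderm genes tested, 6 rose and 2 fell at least 2-fold (median 0.28), but the 6 included Gata5, Myocd and Snai2 at under 1 CPM. The number that rose was 3 without untreated replicate 1 or either Flk1-positive library and 2 without untreated replicate 2, and with no filter on low counts it was 3. Tbx20, a T-box factor of heart and endocardium, stood at 36.2 and 37.1 against 3.48 and 3.85 CPM (3.32 ± 0.19). Gata6 stood at 39.2 and 41.6 against 20.02 and 15.9 CPM (1.17 ± 0.15). Pdgfra, a receptor of cardiac and paraxial mesoderm, stood at 6.84 and 5.20 against 27.7 and 33.4 CPM (-2.34 ± 0.24, edgeR adjusted p = 2.95e-06). The other member that fell was Snai1, a zinc finger factor of epithelial to mesenchymal transition (33.5 and 36.6 against 75.0 and 78.1 CPM, -1.13 ± 0.11). For Tbx20, Gata6 and Snai1, edgeR gave adjusted p of 2.68e-09, 1.96e-05 and 1.04e-06. Of 13 paraxial genes 3 rose and 4 fell (median -0.39), and 2 fell without doxycycline replicate 2 or untreated replicate 2. Dll3, a Notch ligand of presomitic mesoderm, fell beside Pcdh8 (7.00 and 5.78 against 17.0 and 15.8 CPM, -1.36 ± 0.17, adjusted p = 1.96e-05).

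Pluripotency genes did not move as 1 group. Among 22 naive genes, 2 rose and 3 fell at least 2-fold (median 0.04), and the number falling was 5 without untreated replicate 2 or either Flk1-positive library and with the size factors of DESeq2. With no filter on low counts, 4 rose and 5 fell, and 4 rose with thinned counts or with length and GC trends removed. Nanog stood at 73.5 and 73.4 against 262 and 242 CPM (-1.78 ± 0.12, adjusted p = 1.40e-08) and Sox2 at 45.2 and 39.8 against 88.8 and 80.6 CPM (-0.995 ± 0.11, adjusted p = 3.97e-06). Pou5f1 stood closer to its untreated level (-0.44 ± 0.13, adjusted p = 0.0147), and its call was lost without doxycycline replicate 2 (adjusted p = 0.108) or untreated replicate 1 (adjusted p = 0.133). Klf4 and Tbx3, which support the naive state and also act in other tissues, rose, Klf4 to 6.12 and 8.69 from 1.35 and 1.82 CPM (2.22 ± 0.32) and Tbx3 to 44.1 and 39.8 from 17.4 and 12.3 CPM (1.50 ± 0.15), with adjusted p of 7.29e-05 and 1.43e-06.

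Formative epiblast genes were mostly lower. Of 20, 5 fell at least 2-fold and none rose (median -0.72), and 14 were called lower and 4 higher by the call alone, with 2 higher without doxycycline replicate 2 or untreated replicate 2. Otx2, a factor of the post-implantation epiblast, stood at 53.3 and 55.2 against 136 and 125 CPM (-1.27 ± 0.09). Pim2, a kinase, stood at 328 and 307 against 1266 and 1178 CPM (-1.95 ± 0.09). The de novo DNA methyltransferase Dnmt3a and the chromatin protein Utf1 moved the other way, Dnmt3a to 506 and 512 from 316 and 309 CPM (0.71 ± 0.08) and Utf1 to 240.1 and 227 from 131 and 134 CPM (0.82 ± 0.12). For Otx2, Pim2, Dnmt3a and Utf1, edgeR gave adjusted p of 3.55e-08, 2.93e-10, 9.42e-06 and 6.61e-05.

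Endoderm and neural lists moved in part. Of 16 extraembryonic endoderm genes, 6 rose and 1 fell at least 2-fold (median 0.85). The 6 included Sox7 and Sox17, which are also on the endothelial list, and the basement membrane genes Lama1 and Col4a2, while Afp, the yolk sac fetoprotein, had 0 counts in all 4 libraries. Apoe, an apolipoprotein, stood at 1541 and 1471 against 467 and 509 CPM (1.63 ± 0.11, adjusted p = 1.43e-08). Among 14 definitive endoderm genes, 3 rose and 3 fell (median 0.45). Sox9, a factor of several progenitor types, stood at 34.1 and 36.3 against 1.31 and 1.37 CPM (4.71 ± 0.25). Trh, the gene of thyrotropin-releasing hormone, stood at 160.5 and 171 against 782 and 749 CPM (-2.21 ± 0.10). For Sox9 and Trh, edgeR gave adjusted p of 1.08e-09 and 1.32e-10. Of 18 neuroectoderm genes on the list, 9 were tested, of which 3 rose and none fell (median 1.09). The more abundant of these were Irx3 (7.00 and 8.26 against 2.74 and 3.07 CPM, 1.39 ± 0.23) and Tubb3 (50.8 and 49.1 against 22.4 and 24.5 CPM, 1.09 ± 0.12).

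Few markers of 2 further cell types that embryoid bodies can hold changed by at least 2-fold. Of 13 smooth muscle and pericyte genes, 1 (Lmod1, of muscle actin filaments) rose and none fell at least 2-fold (median -0.15), and none rose without any one of the 4 libraries. The list had a summed level of 599 and 574 CPM against 719 and 757 CPM. Cnn1, a calponin of contractile cells, stood at 26.7 and 25.6 against 44.9 and 47.5 CPM (-0.82 ± 0.11, adjusted p = 3.00e-05). None of 11 fibroblast genes rose or fell at least 2-fold (median 0.31; 2 called higher and 1 lower by the edgeR call alone, and 1 and 0 without doxycycline replicate 2 or untreated replicate 2), and their summed level was 291 and 296 CPM against 202 and 197 CPM. Vim, an intermediate filament gene, was among those called higher (205 and 200.1 against 115 and 107 CPM, 0.87 ± 0.10, adjusted p = 8.06e-06).

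**Figure D2:**
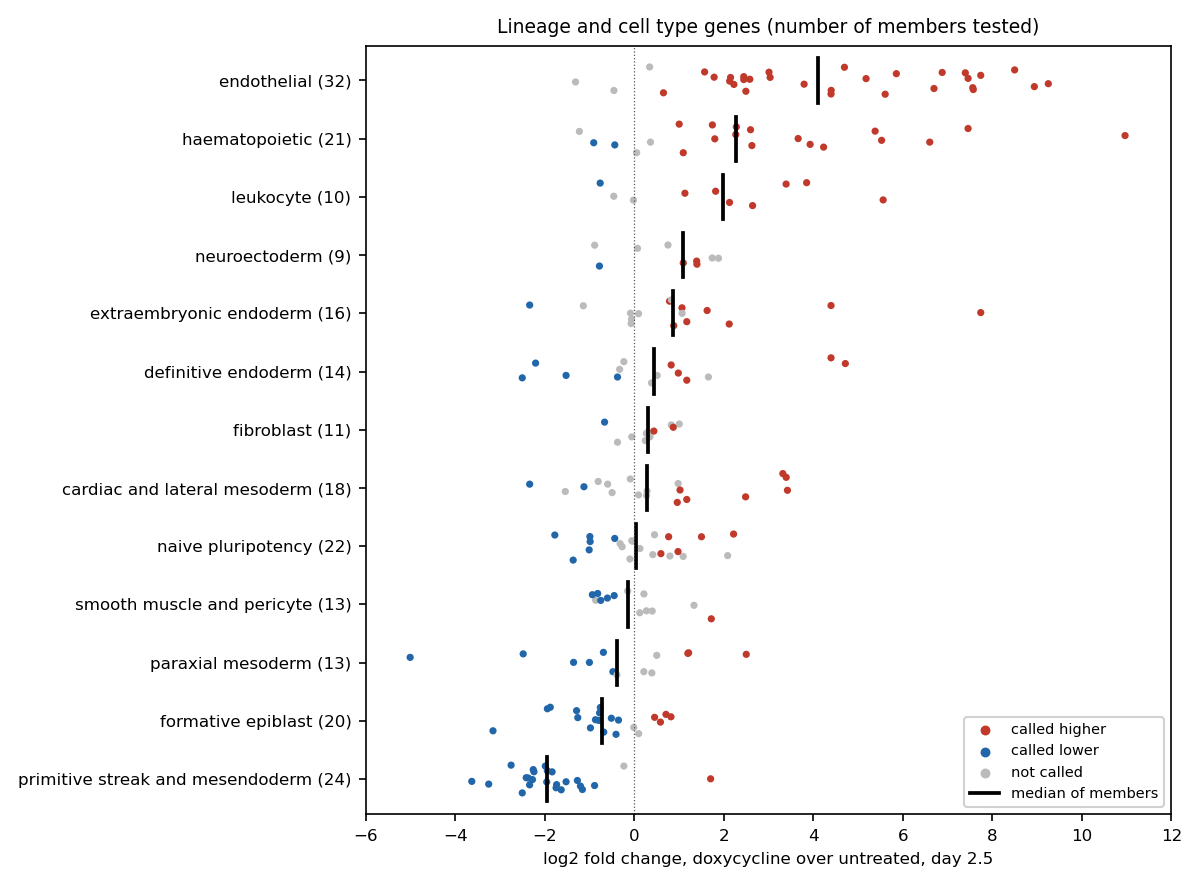
Log2 fold change at day 2.5 (doxycycline over untreated) of each tested member of 13 lineage and cell type lists, with called members in colour and the list median as a bar. The endothelial median stands at 4.09 and the streak median at -1.95, with the other lists between.

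Of 17 VEGF and Tie pathway genes, 13 rose and 1 fell at least 2-fold (median 2.89), with 10 to 12 rising without any one of the 4 libraries. Tek, the angiopoietin receptor Tie2, stood at 23.9 and 28.2 against 1.13 and 1.33 CPM (4.40 ± 0.22). Flt4, the VEGF-C receptor, stood at 169 and 190.0 against 24.4 and 19.5 CPM (3.03 ± 0.13). Tek and Flt4 are also on the endothelial list. The coreceptors Nrp1 and Nrp2 rose, Nrp1 to 35.9 and 42.1 from 1.70 and 3.98 CPM (3.77 ± 0.27) and Nrp2 to 255 and 269.9 from 48.3 and 47.5 CPM (2.45 ± 0.13). For Tek, Flt4, Nrp1 and Nrp2, edgeR gave adjusted p between 8.71e-11 and 1.22e-07. Plxnd1, the endothelial semaphorin receptor, stood at 237 and 253 against 12.9 and 10.3 CPM (4.40 ± 0.14, adjusted p = 3.16e-12), while its ligand gene Sema3e fell to 13.8 and 15.97 from 43.2 and 43.0 CPM (-1.53 ± 0.16, adjusted p = 3.04e-06).

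Receptors and ligands of vessels that signal through G proteins also moved in both directions. Of 25 such genes, 9 rose and 3 fell at least 2-fold (median 0.59). S1pr1, the sphingosine 1-phosphate receptor, stood at 32.5 and 30.6 against 0.479 and 0.414 CPM (6.13 ± 0.26). Gpr116 (Adgrf5) stood at 26.0 and 26.8 against 0.305 and 0.0414 CPM (7.24 ± 0.36). F2r, the thrombin receptor, stood at 528 and 542 against 79.7 and 75.6 CPM (2.78 ± 0.09). For S1pr1, Gpr116 and F2r, edgeR gave adjusted p of 1.05e-10, 5.95e-10 and 3.16e-12. The fallers included ligands. Apln, the apelin peptide gene, stood at 9.53 and 9.65 against 116 and 99.9 CPM (-3.49 ± 0.16). Cxcl12, a chemokine, stood at 65.6 and 57.7 against 144 and 139.7 CPM (-1.20 ± 0.13), with adjusted p of 2.91e-10 for Apln and 6.19e-06 for Cxcl12.

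Notch receptors and targets rose in part. Of 18, 7 rose and 2 fell at least 2-fold (median 0.14), and 1 fell without any one of the 4 libraries. Notch1 stood at 110.3 and 114 against 42.0 and 41.4 CPM (1.43 ± 0.11). Notch4, the endothelial receptor, stood at 12.9 and 10.3 against 3.05 and 3.15 CPM (1.90 ± 0.21). Hey1, a transcriptional target of Notch, stood at 24.0 and 24.9 against 8.83 and 10.1 CPM (1.37 ± 0.14). Hes1, another target, was lower at 47.8 and 48.8 against 77.1 and 82.4 CPM (-0.72 ± 0.10). For Notch1, Notch4, Hey1 and Hes1, edgeR gave adjusted p of 6.47e-08, 6.36e-06, 2.18e-06 and 4.64e-05. Nrarp, a feedback inhibitor, rose (1.49 ± 0.10), but shares 79.4% of its exon length with another gene. The 2 members that fell were the ligands Dll3 and Dll1, and the call of Dll1 (2.91 and 2.40 against 4.79 and 5.88 CPM, -1.01 ± 0.33) was lost without any one of the 4 libraries (adjusted p from 0.0664 to 0.177). Another gene shares 20.5% of the exon length of Dll1.

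Of 27 FGF and ERK pathway genes, 5 rose and 8 fell at least 2-fold (median -0.32). Of those described here, Fgf8 and Fgf17 are also on the streak list, and Etv4 and Etv5 on the formative epiblast list. Fgf8 and Fgf17, ligands of the streak, stood at 33.4 and 27.3 against 133 and 159 CPM (-2.26 ± 0.16) and 1.84 and 1.76 against 20.4 and 24.4 CPM (-3.63 ± 0.24). Etv1, Etv4 and Etv5, ETS factors that are transcribed in response to FGF, fell with them, Etv4 to 8.49 and 9.88 from 82.4 and 81.8 CPM (-3.16 ± 0.11) and Etv1 to 11.7 and 10.4 from 52.1 and 49.9 CPM (-2.20 ± 0.13). For Fgf8, Fgf17, Etv4 and Etv1, edgeR gave adjusted p of 7.44e-08, 1.40e-08, 1.11e-11 and 3.82e-09. Rising members were other ligands and receptors. Fgf3 stood at 9.39 and 12.6 against 2.57 and 2.20 CPM (2.21 ± 0.28). Fgf10 stood at 43.1 and 42.2 against 13.3 and 12.1 CPM (1.75 ± 0.13). Fgfr2 stood at 19.0 and 21.7 against 4.96 and 4.56 CPM (2.10 ± 0.17). Fgfr4 stood at 11.5 and 8.98 against 0.522 and 0.373 CPM (4.50 ± 0.30). Among these 4 the adjusted p lay between 2.04e-08 and 3.07e-05.

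Of 30 Wnt ligands and receptors, 7 fell and 2 rose at least 2-fold (median -0.37), with 5 falling without doxycycline replicate 1. Wnt11 stood at 1.04 and 1.88 against 16.6 and 13.4 CPM (-3.36 ± 0.31). Wnt5b stood at 3.76 and 3.52 against 23.8 and 24.1 CPM (-2.71 ± 0.19). Wnt8a stood at 17.4 and 16.8 against 104 and 127 CPM (-2.76 ± 0.13). The members that rose were Fzd4, the receptor of retinal vessels (12.6 and 13.2 against 4.18 and 5.35 CPM, 1.44 ± 0.20), and Lgr5, an R-spondin receptor (10.2 and 11.1 against 3.87 and 2.32 CPM, 1.78 ± 0.23). For Wnt11, Wnt5b, Wnt8a, Fzd4 and Lgr5, edgeR gave adjusted p of 7.18e-07, 4.06e-08, 4.48e-10, 6.89e-05 and 2.15e-05. Among 24 Wnt targets and inhibitors, 1 rose and 5 fell (median -0.29). Wnt8a and Sp5 are also on the streak list. Frzb, a secreted inhibitor, stood at 4.59 and 2.92 against 38.6 and 35.8 CPM (-3.31 ± 0.22). Sp5, a direct target, stood at 53.1 and 50.2 against 179 and 223 CPM (-1.96 ± 0.13), with adjusted p of 1.54e-08 for Frzb and 1.60e-08 for Sp5.

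Of 20 Nodal and activin genes, 5 fell and none rose at least 2-fold (median -0.27). Of those described here, Nodal, Tdgf1, Lefty2 and Fst are also on the primitive streak list. Nodal stood at 47.4 and 47.0 against 153 and 141 CPM (-1.64 ± 0.10) and its coreceptor Tdgf1 at 186 and 181 against 621 and 692 CPM (-1.84 ± 0.09). The feedback inhibitors Lefty1 and Lefty2 fell, Lefty2 to 15.7 and 17.9 from 75.7 and 83.7 CPM (-2.25 ± 0.16), as did the activin antagonist Fst, to 82.1 and 74.8 from 422 and 417 CPM (-2.42 ± 0.12). For Nodal, Tdgf1, Lefty2 and Fst, edgeR gave adjusted p of 6.48e-09, 3.75e-10, 4.45e-08 and 3.75e-10.

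BMP and TGF-beta lists had more members rising than falling. Of 27 BMP genes, 6 rose and 2 fell at least 2-fold (median 0.60). Eng, the endoglin coreceptor, stood at 108 and 110.0 against 19.8 and 18.9 CPM (2.49 ± 0.10). Bmp2, a ligand, stood at 5.71 and 6.64 against 1.09 and 1.41 CPM (2.30 ± 0.30). Id1 and Id4, which respond to BMP, stood at 84.2 and 92.5 against 40.5 and 47.2 CPM (1.01 ± 0.18) and 13.0 and 17.5 against 3.96 and 5.80 CPM (1.64 ± 0.21). For Eng, Bmp2, Id1 and Id4, edgeR gave adjusted p of 5.95e-11, 2.70e-05, 7.06e-04 and 2.53e-05. Of 15 TGF-beta genes, 5 rose and none fell (median 0.15). Tgfbr2 stood at 27.1 and 28.1 against 5.22 and 3.27 CPM (2.70 ± 0.21). Tgfbi, a secreted matrix protein induced by TGF-beta, stood at 19.9 and 19.3 against 1.22 and 0.829 CPM (4.26 ± 0.23), with adjusted p of 9.76e-08 for Tgfbr2 and 1.84e-09 for Tgfbi.

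The signalling lists that follow had medians near 0. Over all genes tested, 7.57% rose and 2.17% fell at least 2-fold. Of 33 ephrin and semaphorin genes, 5 rose and 4 fell (median 0.11), with Sema3f rising to 56.7 and 52.9 from 13.0 and 13.8 CPM (2.03 ± 0.13) and the Eph receptor Epha2 falling to 37.7 and 46.7 from 192 and 198 CPM (-2.21 ± 0.12). Among 17 Hippo genes and YAP targets 3 rose and none fell (median -0.08), and Tead4, a DNA-binding partner of YAP, stood at 23.9 and 25.4 against 5.79 and 5.43 CPM (2.14 ± 0.15). For Sema3f, Epha2 and Tead4, edgeR gave adjusted p of 8.62e-09, 1.84e-09 and 3.27e-08. None of 13 Hedgehog or 13 retinoic acid genes rose at least 2-fold, while 2 of each fell (medians -0.06 and -0.10), and for Hedgehog 1 fell without doxycycline replicate 2 or either untreated library of day 2, and 4 without either Flk1-positive library. Cyp26a1, which degrades retinoic acid, stood at 9.64 and 11.1 against 24.5 and 26.5 CPM (-1.30 ± 0.14, adjusted p = 3.46e-06), and Gas1, a Hedgehog coreceptor, at 38.4 and 33.4 against 75.2 and 76.5 CPM (-1.08 ± 0.12, adjusted p = 5.10e-06).

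**Figure D3:**
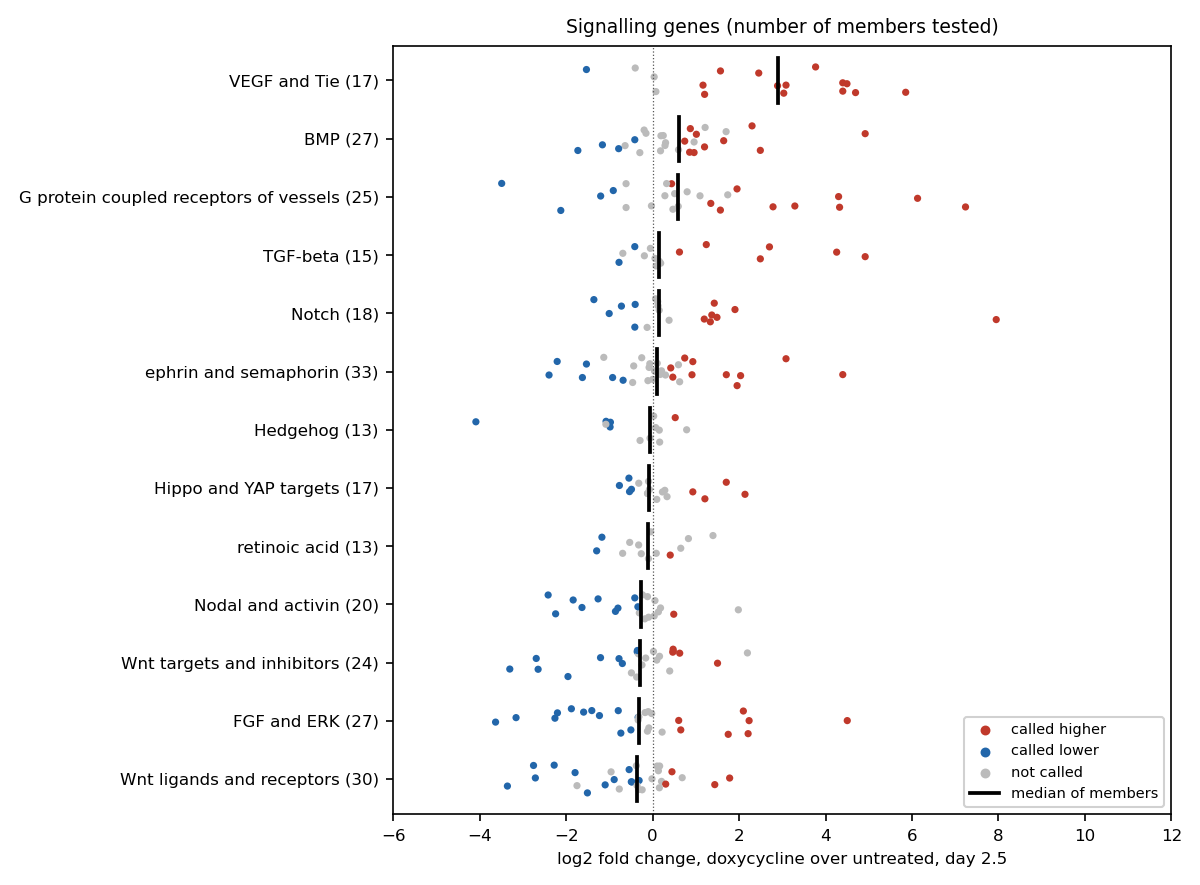
Log2 fold change at day 2.5 of each tested member of 13 signalling lists, with called members in colour and the list median as a bar. VEGF and Tie genes have the highest median (2.89), and the FGF, Wnt and Nodal lists hold called members on both sides with medians under 0.

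The ETS family split in 2 directions. Of 22 members tested, 7 rose and 3 fell at least 2-fold (median 0.22). Ets1 stood at 77.7 and 76.1 against 22.1 and 18.1 CPM (1.93 ± 0.14). Elk3 stood at 135 and 144 against 8.96 and 9.07 CPM (3.95 ± 0.12), rising beside Fli1, Erg and Fev. For Ets1 and Elk3, edgeR gave adjusted p of 5.58e-08 and 2.69e-12. The 3 that fell were the FGF-responsive Etv1, Etv4 and Etv5, of which Etv5 stood at 106 and 107 against 406 and 376 CPM (-1.88 ± 0.08, adjusted p = 1.65e-10). The study's own PCR panel, whose genes were chosen by its authors and are no independent evidence, had 8 of 13 members rising at least 2-fold and none falling (median 4.40). Smarca4, a panel gene that encodes the SWI/SNF ATPase Brg1, stood at 675 and 696 against 660.3 and 676 CPM (0.04 ± 0.09, adjusted p = 0.784). The other ATPase of that complex, Smarca2 (Brm), rose to 106 and 109 from 8.79 and 10.6 CPM (3.47 ± 0.13, adjusted p = 2.75e-11). Of 21 SWI/SNF genes, 1 rose and 1 fell at least 2-fold (median 0.01), the latter being Dpf1, a subunit of neurons (-1.34 ± 0.22).

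Matrix genes rose in part and immediate early genes moved both ways. Of 24 basement membrane genes, 10 rose and none fell at least 2-fold (median 0.79). Itga1, a collagen-binding integrin, stood at 118 and 113 against 12.6 and 11.1 CPM (3.29 ± 0.23). Lama1 stood at 32.4 and 34.1 against 7.53 and 7.79 CPM (2.12 ± 0.16). Nid1 stood at 52.4 and 53.1 against 21.2 and 17.0 CPM (1.47 ± 0.14). Col4a2 stood at 90.7 and 86.6 against 42.0 and 42.8 CPM (1.06 ± 0.09). For Itga1, Lama1, Nid1 and Col4a2, edgeR gave adjusted p between 8.47e-08 and 8.97e-07. Of 21 genes of epithelial and mesenchymal adhesion 2 rose and 1 fell (median 0.27), and without doxycycline replicate 1 none rose. Among 16 immediate early genes, 6 rose and 2 fell (median 0.41). Jun stood at 80.2 and 89.0 against 32.4 and 39.7 CPM (1.23 ± 0.12). Fos stood at 9.06 and 13.5 against 4.13 and 2.57 CPM (1.75 ± 0.25), while Egr1 fell to 9.48 and 8.52 from 48.3 and 55.5 CPM (-2.53 ± 0.16) and Myc to 48.0 and 47.0 from 149 and 147 CPM (-1.64 ± 0.09). For Jun, Fos, Egr1 and Myc, edgeR gave adjusted p of 2.02e-06, 6.49e-05, 1.14e-08 and 1.16e-09.

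No growth control gene of 2 lists rose at least 2-fold. The falls below are to be read against 2.17% of all genes. None of 17 p53 targets rose and 1 fell at least 2-fold (median 0.15). By the edgeR call alone 6 were called higher, against 16.1% of all genes. Cdkn1a, the p21 cell cycle inhibitor, stood at 117 and 124 against 77.4 and 71.4 CPM (0.69 ± 0.09, adjusted p = 4.82e-05). The member that fell was Pmaip1, the apoptosis gene Noxa, at 16.8 and 18.6 against 48.7 and 58.5 CPM (-1.60 ± 0.15, adjusted p = 6.48e-07). Of 30 cell cycle genes, none rose and 2 fell (median -0.11), and 1 fell without untreated replicate 1 or 2. The genes that fell were Ccnd2 and Cdk6, a cyclin and a kinase that start the cycle. Ccnd2 stood at 32.5 and 32.8 against 70.5 and 65.2 CPM (-1.05 ± 0.12). Cdk6 stood at 10.7 and 10.5 against 21.0 and 22.1 CPM (-1.02 ± 0.14). For Ccnd2 and Cdk6, edgeR gave adjusted p of 5.90e-06 and 6.24e-05.

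Ribosome biogenesis genes were lower with doxycycline almost throughout. Of 20 genes tested, 19 were called lower and none higher, against 13.8% and 16.1% of all genes, and the median log2 fold change was -0.57. The count was 17 without any one of the 4 libraries. Polr1b, a subunit of RNA polymerase I, stood at 66.2 and 69.9 against 136 and 124 CPM (-0.93 ± 0.09). Rrp9, a small nucleolar particle protein, stood at 39.1 and 35.3 against 70.6 and 68.0 CPM (-0.90 ± 0.12). Nop2, a ribosomal RNA methyltransferase, stood at 176 and 184 against 287 and 300.1 CPM (-0.71 ± 0.08). For Polr1b, Rrp9 and Nop2, edgeR gave adjusted p of 8.47e-07, 3.66e-05 and 9.39e-06, and the treated libraries lay below the untreated ones for each of the 3.

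Of 24 nucleotide synthesis genes, 12 were called lower and none higher (median -0.29), with 11 or 12 without any one of the 4 libraries. Prps1, which makes the ribose donor of purines and pyrimidines, stood at 46.7 and 47.3 against 86.7 and 85.9 CPM (-0.88 ± 0.10), and the purine enzyme Pfas at 114 and 106 against 181 and 171 CPM (-0.68 ± 0.09). Of 28 genes of serine, one-carbon and amino acid metabolism, 15 were called lower and 3 higher (median -0.34). Without single libraries of the 4, 9 to 11 were called lower and none higher. The arginine and lysine transporter gene Slc7a3 stood at 16.4 and 18.7 against 73.3 and 61.0 CPM (-1.94 ± 0.12). Mthfd2, a mitochondrial one-carbon enzyme, stood at 30.7 and 32.7 against 73.8 and 71.4 CPM (-1.20 ± 0.11), and the serine enzyme gene Psat1 at 146 and 142 against 238 and 218 CPM (-0.66 ± 0.09). For Prps1, Pfas, Slc7a3, Mthfd2 and Psat1, edgeR gave adjusted p of 6.75e-06, 3.10e-05, 7.52e-09, 5.31e-07 and 5.88e-05. Of 8 polyamine genes 3 were called higher and 2 lower (median -0.01), and 1 higher without doxycycline replicate 1 or untreated replicate 1. The lower members were Srm and Odc1, enzymes of polyamine synthesis, at 142 and 141 against 276 and 287 CPM (-0.99 ± 0.11) and 112 and 122 against 184 and 184 CPM (-0.66 ± 0.09), while Sat1, which starts polyamine breakdown, was 1 of the 3 higher members at 78.6 and 74.7 against 38.5 and 41.0 CPM (0.95 ± 0.11). Their adjusted p was 8.15e-06, 4.05e-05 and 1.22e-05.

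Glycolysis genes were called in both directions. Of 23, 4 were called higher and 7 lower (median -0.19), against 16.1% and 13.8% of all genes. The share called higher was thus near that of all genes. Among the lower members was Slc2a1, a glucose transporter gene, at 145 and 157 against 329 and 271 CPM (-0.99 ± 0.10). Hk2, a hexokinase, stood at 119.6 and 122 against 246 and 241 CPM (-1.01 ± 0.08). Ldha, a lactate dehydrogenase, stood at 610.5 and 651 against 1173 and 1084 CPM (-0.84 ± 0.09). The other hexokinase Hk1 was higher at 75.4 and 81.6 against 53.8 and 53.2 CPM (0.55 ± 0.10). Pdk1, the kinase that inhibits pyruvate dehydrogenase, rose to 341 and 349 from 131 and 138 CPM (1.36 ± 0.09), as did Aldoc to 44.1 and 46.2 from 22.0 and 21.1 CPM (1.07 ± 0.12). For Slc2a1, Hk2, Ldha, Hk1, Pdk1 and Aldoc, edgeR gave adjusted p of 2.87e-06, 1.63e-07, 4.42e-06, 5.13e-04, 1.10e-08 and 6.24e-06. Of 18 hypoxia response genes, 3 were called higher and 2 lower (median 0.09), 2 and 1 without any one of the 4 libraries, and 5 and 4 without either doxycycline library of day 2. With all libraries, both hypoxia shares were near those of all genes. Epas1, the hypoxia factor of endothelium, rose to 5.93 and 7.10 from 2.48 and 2.40 CPM (1.41 ± 0.23). Ndrg1 fell to 7.39 and 8.14 from 23.4 and 22.5 CPM (-1.56 ± 0.16), with edgeR adjusted p of 2.81e-04 for Epas1 and 1.97e-06 for Ndrg1.

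Mitochondrial and lipid lists moved little and depended on single libraries. Over all genes tested, 16.1% were called higher and 13.8% lower. Of 40 respiratory chain and ATP synthase genes encoded in the nucleus, 10 were called lower and none higher (median -0.17), but 3, 0, 0 and 5 were called lower without doxycycline replicate 1, doxycycline replicate 2, untreated replicate 1 and untreated replicate 2, and 20 without either doxycycline library of day 2. Of 26 pyruvate and citrate cycle genes, 4 were called lower and none higher (median -0.08), with 1 or 2 without any one of the 4 libraries or either untreated library of day 2. With all libraries, the share of this list called lower was near that of all genes. Dlat, a pyruvate dehydrogenase subunit, stood at 73.4 and 75.5 against 119.7 and 104 CPM (-0.59 ± 0.09, edgeR adjusted p = 2.15e-04). Cholesterol synthesis had 6 of 23 members called lower and 1 higher (median -0.17), with 2 lower without either doxycycline library or untreated replicate 1 and 10 lower without either doxycycline library of day 2. Fatty acid genes had 8 of 25 lower and 4 higher (median -0.06), with 4, 2 and 4 lower in the same 3 cases, 4 lower without either untreated library of day 2, and 2 higher without either doxycycline library, untreated replicate 2 or either Flk1-positive library. The sterol enzyme gene Ebp stood at 36.3 and 42.9 against 66.7 and 65.3 CPM (-0.74 ± 0.11, adjusted p = 7.29e-05), and Hadha, of fatty acid oxidation, at 149.9 and 155 against 109.9 and 108 CPM (0.49 ± 0.08, adjusted p = 3.04e-04).

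Lysosome genes were called on the higher side. Of 23, 12 were called higher and none lower (median 0.30), but 6, 6 and 7 were called higher without doxycycline replicate 1, doxycycline replicate 2 and untreated replicate 1, and 2 lower without either doxycycline library of day 2. Lamp2, a membrane protein of lysosomes, stood at 169.9 and 163 against 91.3 and 96.8 CPM (0.82 ± 0.09, adjusted p = 3.02e-06). The cathepsin gene Ctsh stood at 10.2 and 10.1 against 1.35 and 1.49 CPM (2.83 ± 0.25, adjusted p = 5.03e-07), and Ctse, another cathepsin, had 365 counts against 0, at least 80.7-fold higher. Of 19 haem and iron genes, 3 were called higher and 4 lower (median -0.08), and 1 was lower without doxycycline replicate 2 or untreated replicate 1. Tfrc, the transferrin receptor, was lower at 153 and 144 against 234 and 230.0 CPM (-0.65 ± 0.08) and Hmox1, which degrades haem, higher at 90.9 and 89.9 against 64.2 and 55.4 CPM (0.60 ± 0.10), with edgeR adjusted p of 3.09e-05 and 2.28e-04. Among 19 redox genes, 3 were called higher and 2 lower (median -0.07), with 1 higher without doxycycline replicate 2 and 5 lower without either doxycycline library of day 2. Of 8 pentose phosphate genes 1 was called lower and none higher (median -0.13), namely G6pdx, which opens the pathway (119.8 and 123 against 165 and 161 CPM, -0.42 ± 0.08, edgeR adjusted p = 0.0011). Of all genes tested, 16.1% were called higher and 13.8% lower. With all libraries, no share of the redox or pentose phosphate list exceeded these, nor did the share of haem and iron genes called higher.

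**Figure D4:**
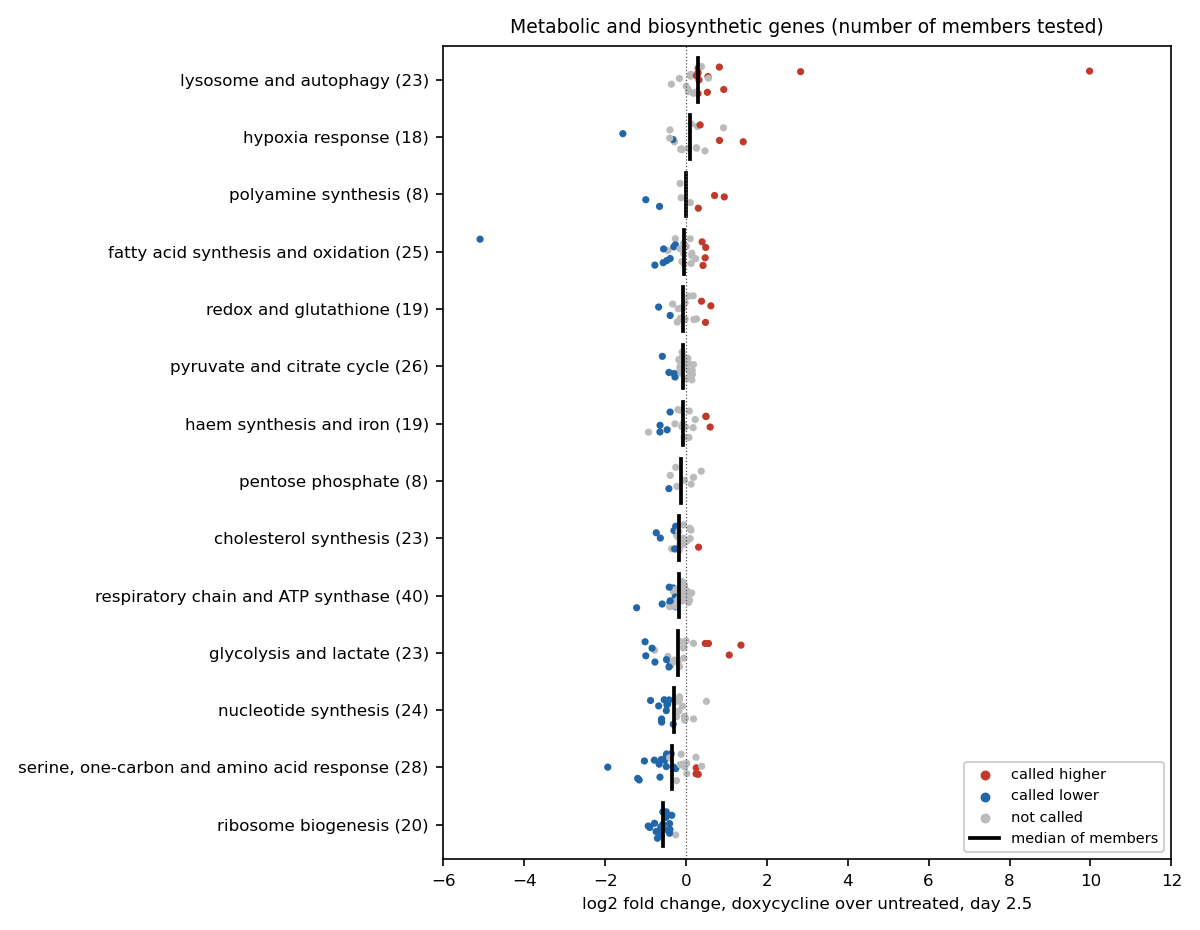
Log2 fold change at day 2.5 of each tested member of 14 metabolic and biosynthetic lists, with called members in colour and the list median as a bar. The ribosome biogenesis median stands at -0.57, and most other members lie within 1 log2 unit of 0.

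The response at day 2.5 was compared with that at day 2, from other libraries, by the interaction of doxycycline and day. Of all genes tested, 1000 (6.87%) had a higher and 763 (5.24%) a lower log2 fold change at day 2.5 than at day 2. The first count was 559 without untreated replicate 1 of day 2 and 2115 without doxycycline replicate 2 of day 2, and the second was 278 and 1954 without the same libraries. The doxycycline libraries of day 2 differed from each other more than other replicate pairs (chi-square per gene 32.0, against 3.33 to 9.65). Across genes, replicate 2 minus replicate 1 of this pair had a rank correlation of 0.487 with transcript length. In the other pairs that correlation lay between -0.098 and 0.106. With GC content it was -0.317 in this pair and -0.367 in the Flk1-positive pair. The cause was not tested. Etv2 itself stood at 507 and 403 CPM with doxycycline and 15.8 and 18.1 CPM without at day 2 (4.75 ± 0.13), and its interaction missed the threshold (0.47 ± 0.18, edgeR adjusted p = 0.0998). Of 453 genes called higher at day 2, 331 were called higher at day 2.5, which is 73.1% of the first and 14.1% of the second set. Over all genes tested, 16.1% were called higher at day 2.5. Of 227 called lower at day 2, 134 were called lower at day 2.5 (59.0% and 6.7%), against 13.8% of all genes.

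Several lists responded more at day 2.5 than at day 2. Of 32 endothelial genes, 24 had a higher response at day 2.5 and none a lower one (19 to 26 without single libraries), with a median of 0.82 at day 2 and 4.09 at day 2.5. Cdh5 stood at 0.519 and 0.586 CPM with and 0.476 and 0.709 CPM without doxycycline at day 2, and its interaction was 7.47 ± 0.60 (adjusted p = 9.35e-07). Haematopoietic genes had 12 of 21 higher and none lower (9 to 14). Streak genes had 1 of 24 higher and 17 lower (16 to 18), with a median of -0.62 at day 2. Mixl1, a homeobox gene of the streak, was called higher at day 2 (347 and 376 against 213 and 197 CPM, 0.82 ± 0.09, edgeR adjusted p = 5.84e-05) and lower at day 2.5 (99.5 and 89.5 against 469 and 489.6 CPM, -2.34 ± 0.10). Formative genes had 10 of 20 lower (9 to 12) and 2 higher, or 1 higher without any library other than the doxycycline pair of day 2. FGF genes had 4 of 27 higher and 10 lower (10 to 14), with Etv4 at -3.18 ± 0.15 (adjusted p = 4.19e-09). Ribosome biogenesis genes had a median of 0.01 at day 2, and 14 of 20 had a lower response at day 2.5 (9 without untreated replicate 1 of day 2 or doxycycline replicate 2 of day 2.5). Nucleotide synthesis genes had 6 of 24 lower, but 13 without doxycycline replicate 2 of day 2 and 1 or 2 without any untreated library of either day or either doxycycline library of day 2.5.

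**Figure D5:**
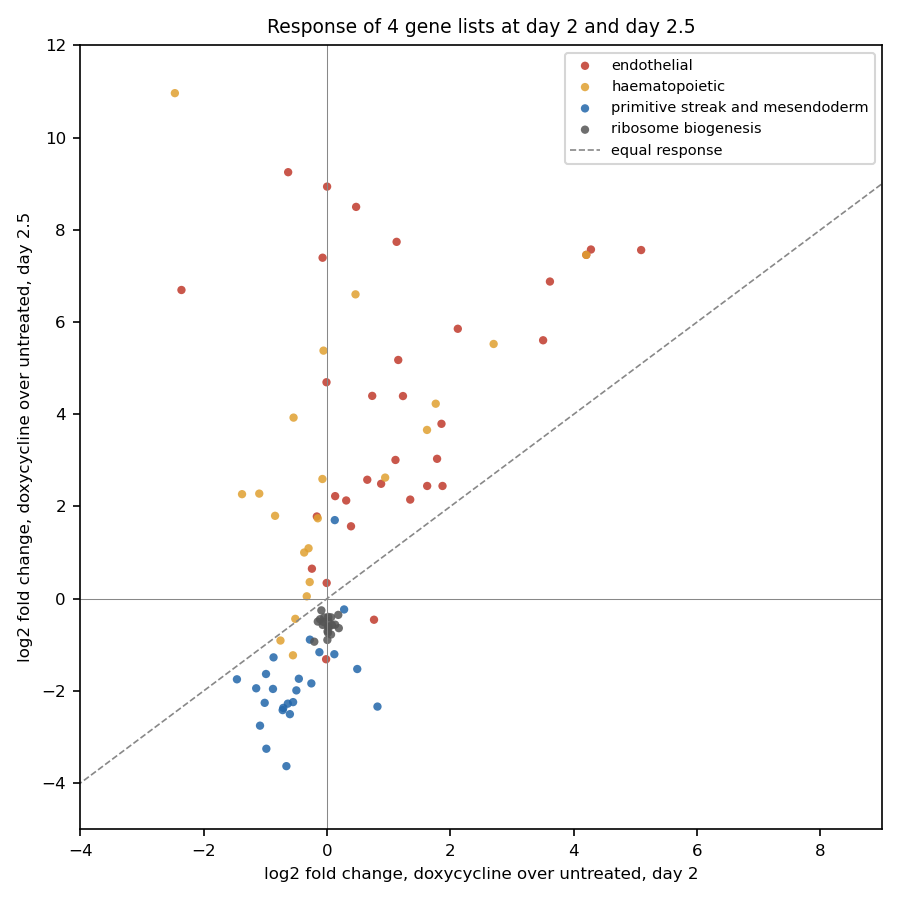
Log2 fold change (doxycycline over untreated) at day 2 (x axis) and day 2.5 (y axis) of the members of 4 lists, with a dashed line where both are equal. Endothelial and haematopoietic points lie mostly above the line and streak points mostly below it, and ribosome biogenesis points lie near 0 on the x axis with a day 2.5 median of -0.57.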

How the data were processed

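The authors deposited 1 table of raw read counts, by gene, for 10 bulk RNA-seq libraries. TopHat, HTSeq and DESeq2 are named without roles, and mm10 as the build, per the submitters' processing notes. No source used here gives the gene annotation, the strand setting or the treatment of reads with several matches, so overlapping, antisense and near-identical genes may share reads. Of 23429 rows, 92 spike-in rows had 0 counts and were left out, and 4811 genes had 0 counts throughout. In R 4.3.3, edgeR 4.0.16 kept 14548 genes (filterByExpr, minimum count 10, minimum total 15), scaled libraries by TMM and fitted 1 mean per group to all 10 libraries with robust quasi-likelihood (5 residual degrees of freedom, common biological coefficient of variation 0.1). The threshold was a Benjamini-Hochberg adjusted p of 0.05, and standard errors come from the F statistic. The interaction is the day 2.5 minus the day 2 log2 fold change. Total counts were 18074070 to 36068329 per library.

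The gene lists (49, with 974 of 975 genes in the table, 12 under an older symbol) and the members described were chosen with earlier results of these data known. Named genes are Etv2, Kdr, the study's PCR panel, the 20 largest called rises and falls with at least 5 CPM in the higher group and no overlap, up to 6 called members per list and direction with at least 5 CPM, and 6 interactions per direction. The result of 1 list is not reported here. Names of genes outside this rule (marker checks, counts, other observations) were chosen after their values were seen. Exon overlap came from GENCODE M21 and promoters from RefSeq GRCm38.p6. Alternatives were other size factors, no filter, only the compared libraries, a replicate block, each library left out, thinned counts, DESeq2 1.42.0, limma-voom (limma 3.58.1) and removal of length and GC trends. The procedure was tested on simulated data.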

Additional observations from a re-analysis of the deposited data

Results flagged for a closer look

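The response to doxycycline differed between day 2.5 and day 2, by the interaction test of edgeR, for 1000 genes with a higher and 763 with a lower log2 fold change at day 2.5. The 6 largest differences on the higher side among genes of at least 5 CPM were Tal2 (13.44), Fli1 (9.88), Erg (9.06), Cdh5 (7.47), Sox7 (6.61) and Gata2 (6.14), each a difference of log2 fold changes. Those of Tal2, Fli1 and Erg rest on near-zero counts in some groups, so their size depends on the fit's prior count and is no bound. On the lower side stood Tgm3, a transglutaminase (-3.36), Etv4 (-3.18), Mixl1 (-3.16), Fgf17 (-2.97), Frzb (-2.91) and Six2 (-2.38). Six2, a homeobox factor, was at 18.8 and 23.7 CPM with and 11.2 and 12.5 CPM without doxycycline at day 2, and at 3.32 and 4.48 against 12.1 and 10.4 CPM at day 2.5. Tgm3 stood at 6.23 and 6.84 against 5.67 and 6.11 CPM at day 2 and at 0.412 and 0.231 against 2.65 and 3.40 CPM at day 2.5.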

How the results depend on the processing

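The genes called lower at day 2.5 (2001) numbered between 1032 and 2945 without single libraries, and those called higher (2349) between 1566 and 3040. With a change of at least 2-fold the ranges were 269 to 348 lower and 897 to 1203 higher. For the interaction they were 559 to 2115 higher and 278 to 1954 lower, and with length and GC trends removed 1310 genes were lower. The replicate numbers pair nothing that the labels state, and deviations of same-numbered libraries correlated between -0.034 and 0.098; with the replicate number as a block, 2412 genes were called higher and 2089 lower. DESeq2 called 2214 higher and 2221 lower, and the fit of the 4 libraries alone 2853 and 2830. Among 6228 alternative values of named genes, no called gene reversed its direction. A change of sign in an uncalled gene was counted as unchanged. By this rule 5869 values were unchanged, 357 lost and 2 gained the call. Without single libraries, 82 of 334 named genes lost it. With 2 libraries per group, changes of small size and genes near the floor of 3 counts were not resolvable at this depth.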

Other observations

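The genes in these paragraphs were chosen after their values were seen, and they are given as values. Igtp stood at 1.13 and 1.16 CPM with doxycycline against 7.18 and 5.06 CPM without (-2.42 ± 0.39), Irgm1 at 6.76 and 5.78 against 24.0 and 17.6 CPM (-1.73 ± 0.25) and Gbp2 at 2.61 and 2.89 against 10.1 and 10.2 CPM (-1.89 ± 0.20), all 3 of them genes of interferon-inducible GTPases. The interferon response factor Irf1 stood at 57.7 and 55.5 against 115 and 129.7 CPM (-1.12 ± 0.11), the immunoproteasome subunit gene Psmb10 at 6.76 and 7.10 against 22.6 and 19.3 CPM (-1.59 ± 0.17) and the peptide trimming enzyme gene Erap1 at 13.2 and 15.4 against 39.2 and 35.8 CPM (-1.39 ± 0.13). For Igtp, Irgm1, Gbp2, Irf1, Psmb10 and Erap1, edgeR gave adjusted p of 2.56e-04, 9.52e-05, 4.50e-06, 1.17e-06, 4.37e-06 and 9.74e-07, and each of these 6 genes kept its call without any single library (highest adjusted p 0.00756, for Igtp). In the same libraries Tmem173, an adaptor that can induce interferon, rose.

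Beside Myc, described above, other MYC family genes were lower. Mycn stood at 45.0 and 44.0 against 94.4 and 89.6 CPM (-1.05 ± 0.12) and Mycl1 at 57.5 and 58.5 against 155 and 158 CPM (-1.43 ± 0.08), with edgeR adjusted p of 5.08e-06 and 4.82e-09. Igf2 stood at 169 and 185 against 24.3 and 24.9 CPM (2.85 ± 0.10), with 64.5% of its exon length shared with another gene, and the binding protein gene Igfbp4 at 569.9 and 634 against 27.1 and 32.0 CPM (4.35 ± 0.11), while Igfbp2 fell to 88.8 and 85.8 from 223 and 226 CPM (-1.36 ± 0.13) and Igfbp3 to 48.5 and 50.5 from 151 and 149 CPM (-1.60 ± 0.11). For Igf2, Igfbp4, Igfbp2 and Igfbp3, edgeR gave adjusted p of 8.65e-12, 4.55e-13, 8.64e-07 and 1.62e-08.

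Dusp6, Spry2 and Spry4, feedback inhibitors of FGF and ERK signalling, were each called higher at day 2 and lower at day 2.5. Dusp6, an ERK phosphatase, stood at 676 and 630.4 against 246 and 234 CPM at day 2 (1.44 ± 0.09, edgeR adjusted p = 4.93e-08) and at 297 and 277 against 374 and 352 CPM at day 2.5 (-0.34 ± 0.08, adjusted p = 0.00701). Spry4 stood at 102 and 107 against 61.6 and 51.0 CPM at day 2 (0.89 ± 0.12) and at 21.6 and 19.0 against 57.9 and 50.1 CPM at day 2.5 (-1.41 ± 0.12), and Spry2 at 175 and 191 against 123 and 124 CPM (0.57 ± 0.09) and 87.7 and 82.2 against 143 and 139.5 CPM (-0.74 ± 0.09). The interaction was -1.78 ± 0.12, -2.30 ± 0.17 and -1.30 ± 0.12 for the 3 genes, with adjusted p of 2.01e-07, 5.13e-07 and 4.92e-06. It was called for each of the 3 without any single library, while the day 2.5 call of Dusp6 was lost without 1 library (adjusted p up to 0.108). Of 453 genes called higher at day 2, 10 (2.21%) were called lower at day 2.5, against 13.8% of all genes tested. Of 227 called lower at day 2, 9 (3.96%) were called higher at day 2.5, against 16.1% of all genes.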
